A study of Saccharomyces cerevisiae with 4 samples.

Results

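The Ty elements of Saccharomyces cerevisiae are retrotransposons, mobile DNA copied through RNA, and their genes were followed here after depletion of the prolyl isomerase Ess1. Members were all rows of the count table whose RefSeq product in build R64 contains gag protein, gag-pol or transposon. The rule took 91 of 6459 rows, 45 annotated as gag and 46 as gag-pol. By the annotated element in which a row lies, 61 rows were assigned to Ty1, 20 to Ty2, 3 to Ty3 and 5 to Ty4. The remaining 2, YDR170W-A and YLR035C-A, lie outside any annotated element. They were placed with Ty1 because 74.3% and 97.4% of their 30-base stretches occur in Ty1 elements. No row of Ty5 was taken: its only element in this genome holds the pseudogenes YCL074W and YCL075W, which carried 1 read and 0 reads over all libraries.

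All 4 libraries came from the ESS1-AID strain in the BY4741 background. In this strain Ess1 carries an auxin-inducible degron with a Flag tag, so that auxin triggers its proteolysis, and the plant receptor OsTIR1 with a Myc tag is expressed from ADH1 sequences at HIS3. Mid-log cultures in rich glucose medium at 30°C received DMSO, the control (2 libraries), or 2 mM IAA, the auxin indole-3-acetic acid (2 libraries), for 3 h. The series describes the libraries of a group as biological replicates. Control and treated cells carry the same tag and receptor and no untagged strain is included, so loss of Ess1 and other effects of IAA cannot be told apart.

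A Ty element is flanked by long terminal repeats (LTRs), whose upstream copy holds the promoter. RNA polymerase II makes a single RNA from it, which is both the messenger and the template for reverse transcription. Gag is the structural protein of the virus-like particle. Pol holds the protease, integrase and reverse transcriptase, and is made only as a fusion when the ribosome slips forward by 1 base near the end of gag. Ty1, Ty2, Ty4 and Ty5 belong to the copia group and Ty3 to the gypsy group of retrotransposons. Ty1 RNA is known as one of the most abundant RNAs made by RNA polymerase II in budding yeast. Ty1 and Ty3 are known to insert next to genes transcribed by RNA polymerase III. Of the 46 annotated elements that held a member, 36 lay within 1000 bp of a tRNA gene.

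The slip site ties the gag and gag-pol rows together, and it is printed for 1 row of each family, with the slippery heptamer in capitals. The stretches are 49 bases long, 5′ to 3′ on the coding strand, from the R64 genome. They lie at chrXIII:185742-185790 (plus strand) for YML045W, chrXV:708415-708463 (minus) for YOR192C-B, chrIX:206462-206510 (plus) for YIL082W-A and chrVIII:86971-87019 (plus) for YHL009W-B.
Ty1 YML045W: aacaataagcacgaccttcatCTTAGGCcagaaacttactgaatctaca
Ty2 YOR192C-B: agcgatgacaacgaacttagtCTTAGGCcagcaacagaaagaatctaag
Ty3 YIL082W-A: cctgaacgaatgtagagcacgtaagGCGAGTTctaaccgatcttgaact
Ty4 YHL009W-B: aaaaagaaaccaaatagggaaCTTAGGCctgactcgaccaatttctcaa
The heptamer CTTAGGC stood at the junction of all 29 Ty1 and all 10 Ty2 gag-pol rows whose coding sequence is annotated in 2 parts, and of 2 of 3 Ty4 rows. Both Ty3 rows had GCGAGTT in its place.

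The windows around the start of gag are shown for the Ty1 row with the largest rise, the Ty2 row with the largest fall and the Ty3 row that rose. A printed window does not stand for its whole family, as the 29 Ty1 windows held 20 different sequences. Those of the Ty1 rows YDR098C-B and YDR210C-D match the window of the Ty2 row YOR343W-B from their first base to past the last TATAAA. They differ widely there from the Ty1 window printed here. Each runs from 250 bases before the annotated start to 50 bases after it. Capitals mark TATAAA (the core of a TATA box), TGAAAC (the core letters bound by Ste12, the transcription factor of mating and filamentous growth) and CATTCC (bound by its partner Tec1), on either strand. The windows lie at chrXIII:184211-184510 (plus), chrXV:709683-709982 (minus) and chrIX:205385-205684 (plus).
Ty1 YML045W: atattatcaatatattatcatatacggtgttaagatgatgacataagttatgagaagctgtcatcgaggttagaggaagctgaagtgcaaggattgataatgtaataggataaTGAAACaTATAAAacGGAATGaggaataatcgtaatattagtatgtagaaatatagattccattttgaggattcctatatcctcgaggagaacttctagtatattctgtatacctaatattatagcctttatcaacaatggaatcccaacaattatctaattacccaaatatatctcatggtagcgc
Ty2 YOR192C-B: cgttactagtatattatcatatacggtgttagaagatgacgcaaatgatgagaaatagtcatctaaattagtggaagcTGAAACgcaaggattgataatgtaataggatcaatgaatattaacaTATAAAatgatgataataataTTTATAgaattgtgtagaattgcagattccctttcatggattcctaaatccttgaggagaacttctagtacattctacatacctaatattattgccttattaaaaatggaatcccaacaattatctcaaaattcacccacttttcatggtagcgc
Ty3 YIL082W-A: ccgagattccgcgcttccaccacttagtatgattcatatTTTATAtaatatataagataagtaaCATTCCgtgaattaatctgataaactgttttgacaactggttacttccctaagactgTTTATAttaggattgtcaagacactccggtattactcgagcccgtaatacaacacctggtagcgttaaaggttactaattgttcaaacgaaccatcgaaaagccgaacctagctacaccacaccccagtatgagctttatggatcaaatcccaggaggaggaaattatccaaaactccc
TGAAAC was present in all 29 Ty1 and all 10 Ty2 windows of full gag-pol rows and in 0 of 2 Ty3 windows. Of the windows of all 6455 rows that could be read, 20.2% held it. The Ty3 windows begin inside their elements, so part of the upstream LTR was not read. That of YIL082W-A begins at 205385 and its element at 205220. Both Ty4 windows that lie at the start of gag held TGAAAC, but only after that start, within gag. The window of the other Ty4 row, YJL113W, is not counted here, since this row starts after the end of its gag row YJL114W and the window lies within the element. CATTCC was present in 20 of the 29 Ty1 windows and in 1 of 10 Ty2 windows, against 10.9% of all windows. In the Ty2 window it also lies after the start of gag. TATAAA was present in all Ty1, Ty2 and Ty3 windows and in 45.7% of all windows. TGACTC, the core bound by the amino acid starvation factor Gcn4, was in none of these Ty windows and in 8.0% of all windows. These are letter matches in near-identical copies, not measured binding.

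Near-identity of the copies sets how the values can be read. Every one of the 56 rows with any read had a decimal in its estimated count in at least 1 library, which marks reads divided among loci by RSEM, and 35 rows were at 0 in all 4 libraries. Among the 46 gag-pol rows, 10 held no stretch of 100 bases that occurs only once in the genome, and 35 had such stretches over less than 10% of their positions. The medians were 1.9% for Ty1 gag-pol and 7.65% for Ty2 gag-pol, against 57.0% and 57.4% for the 2 Ty3 rows. The sources used here give no read length, and 100 bases serve only as a common measure. Of the 45 gag rows, 41 lie wholly inside a gag-pol row on the same strand, so any read of theirs also matches the longer row. A family sum does not depend on how reads were divided within a family, while the value of a single row does.

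Library totals lay between 26046702 and 33625232 estimated counts, with the IAA libraries deeper. The tagged gene ESS1 had 5.15 and 5.31 CPM in DMSO and 6.70 and 7.92 CPM in IAA (TMM-scaled CPM, reads scaled to a common library total), and the degron acts on the protein, so this row is no check of depletion. The strain matched its label in that the deleted markers LEU2, MET17 and URA3 were at 0 in every library and the MATa gene STE2 (361 to 395 CPM) far exceeded the MATalpha gene STE3 (4.68 to 6.12 CPM). The short MATa pheromone genes MFA1 and MFA2 were near 0, at no more than 7 and 26 counts. HIS3, where the receptor was placed, had 777 and 362 CPM in DMSO and 989 and 444 CPM in IAA, so replicate 1 was above replicate 2 in both groups. Its part in the Ty results was not tested.

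Ty1 RNA was higher in IAA, Ty2 RNA was slightly lower, and the rare Ty3 and Ty4 RNAs were slightly higher. The summed Ty1 level was 55082 and 55242 CPM in the DMSO libraries and 70303 and 69625 CPM in the IAA libraries, a rise of 1.27-fold (55162 ± 113 against 69964 ± 480, mean ± SD, n = 2 each). Both IAA libraries lay above both DMSO libraries, as they did in 40.2% of all tested rows. The gap was far wider than the spread within a group. Ty1 rows took 5.71% and 5.73% of all counts in DMSO and 6.75% and 6.75% in IAA. As these are relative levels in bulk cultures, more cells with the RNA and more RNA per cell cannot be told apart.

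Ty2 moved the other way. Its summed level was 6514 and 6413 CPM in DMSO and 6104 and 5686 CPM in IAA, or 1.096-fold lower (6463 ± 71.3 against 5895 ± 296, n = 2 each). The groups did not overlap, but the IAA libraries differed from each other by more than the higher of them differed from the nearest DMSO library. Per library, Ty2 reads amounted to 11.8% and 11.6% of Ty1 reads in DMSO and to 8.68% and 8.17% in IAA. Reads that match both families may have been divided between them, and the effect of this on the sums was not tested.

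The Ty3 sum was 190.9 and 193.7 CPM in DMSO and 219 and 217 CPM in IAA, or 1.13-fold higher (192 ± 2.00 against 218 ± 1.72, n = 2 each). The Ty4 sum was 82.0 and 84.5 CPM in DMSO and 97.6 and 95.6 CPM in IAA, or 1.16-fold higher (83.2 ± 1.74 against 96.6 ± 1.40, n = 2 each). Neither family's groups overlapped, but both IAA libraries also lay above both DMSO libraries in 40.2% of all tested rows and below them in 41.3%. Scaling by library size alone, under which the median over all tested rows shifted by -0.10 (log2), changed these ratios: the Ty1 log2 ratio went from 0.34 to 0.24, that of Ty2 from -0.13 to -0.24, that of Ty3 from 0.18 to 0.08 and that of Ty4 from 0.22 to 0.11. The family sums were compared without a test, and whether the families differ in their response was not tested.

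**Figure D1:**
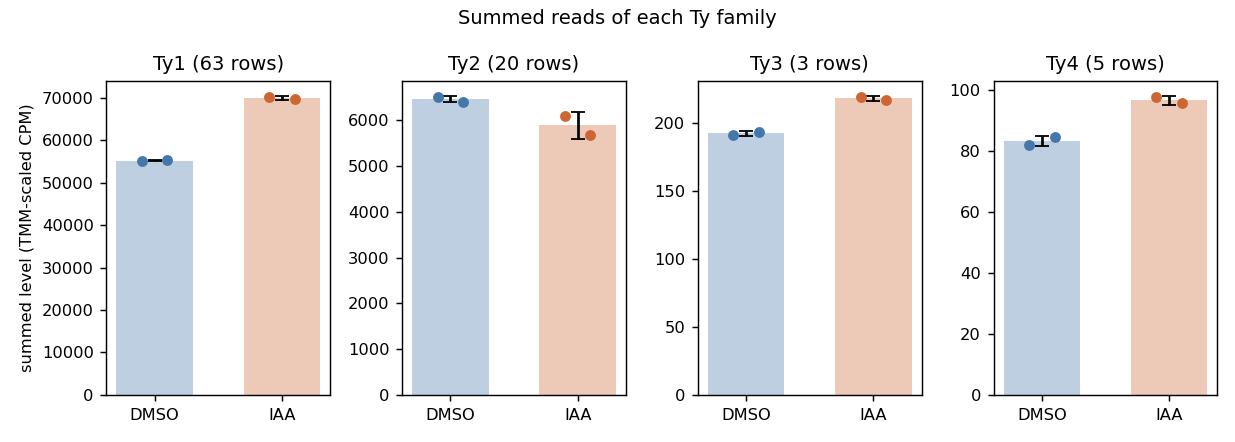
Summed level of the rows of each Ty family in TMM-scaled CPM (vertical axis from 0, on its own scale in each panel) by treatment; points are libraries, bars the mean of 2 libraries and error bars the SD. Ty1 lies at 55082 and 55242 CPM in DMSO and at 70303 and 69625 CPM in IAA, while Ty2 is lower in both IAA libraries.

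Row by row, the edgeR quasi-likelihood test was fitted over all 5799 rows that passed the filter on low counts, with p-values adjusted by Benjamini-Hochberg over all of them. Of the 91 members, 54 were tested, 35 were at 0 everywhere, and YDR316W-B and YCL020W fell below the filter. At an adjusted p under 0.05, 33 members were higher and 11 lower in IAA, against a background of 28.7% of all tested rows higher and 29.6% lower, or 58.3% in either direction. Both IAA libraries lay above both DMSO libraries in 37 members and below them in 12, against 40.2% and 41.3% of all tested rows. At least 1.5-fold, 10 were higher and 5 lower, against 6.88% and 2.76% of all tested rows. The median log2 fold change over the 54 was 0.26, beside -0.0036 over all tested rows. A member that had reads in a single group passed the filter through that group, so these counts describe the tested rows and not all members.

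**Figure D2:**
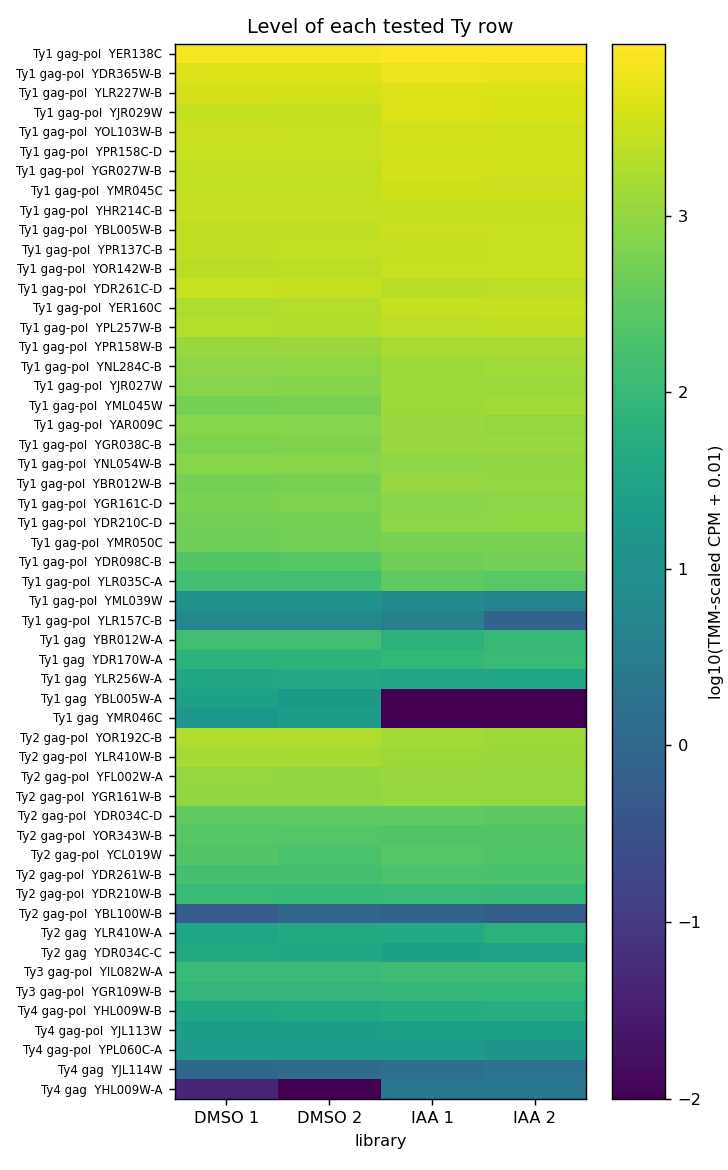
Level of each of the 54 tested Ty rows (vertical axis, ordered by family, class and mean level) in the 4 libraries (horizontal axis), coloured by log10 of TMM-scaled CPM plus 0.01. Ty1 gag-pol rows hold the highest levels, led by YER138C, and the gag rows YBL005W-A and YMR046C are at 0 in both IAA libraries.

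Most Ty1 gag-pol rows rose. Of 31 such rows, 30 were tested, 26 rose, 3 fell and 1 did not pass the test. Among all tested rows, 28.7% were higher and 29.6% lower. The median log2 fold change of the 30 was 0.38, with a range from -1.36 to 1.305. Levels per length, in the deposited FPKM, spanned a wide range: the median over the 31 rows was 241 in DMSO and 306 in IAA, and the highest was 1570 and 1785.

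YER138C (chromosome V, 443756 to 449024, minus strand, element YERCTy1-1) was the most abundant row. It had 7553 and 7741 CPM in DMSO and 9300 and 9355 CPM in IAA, with both IAA libraries above both DMSO libraries. It rose 1.22-fold (log2 0.29, SE 0.0393, edgeR adjusted p = 0.000461). It held between 13.2% and 14.0% of all Ty1 reads in each library, although no 100-base stretch of it is found only once in the genome.

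YML045W (chromosome XIII, 184461 to 189729, plus strand, element YMLWTy1-1) rose most among the tested gag-pol rows. It had 542 and 551 CPM in DMSO and 1334 and 1365 CPM in IAA, again without overlap. The rise was 2.47-fold (log2 1.305, SE 0.0403, edgeR adjusted p = 2.56e-06). Its gag row, YML045W-A, was at 0 in all libraries. Only 0.6% of its 100-base stretches occur once in the genome, so its share of the common Ty1 reads is an estimate that rests on few positions.

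The falling Ty1 gag-pol rows were YLR157C-B, YML039W and YDR261C-D. Only 1.9%, 1.9% and 0.6% of their 100-base stretches occur once in the genome, so their values too are estimates that rest on few positions. YLR157C-B, at 5.94 and 5.93 CPM in DMSO, had 3.80 and 0.824 CPM in IAA (log2 -1.36, SE 0.438, edgeR adjusted p = 0.0268), and its IAA libraries differed from each other more than the groups did at their nearest. Its log2 fold change was -2.83 without IAA replicate 1 and -0.63 without IAA replicate 2. Its adjusted p was 0.251 with DESeq2 and 0.0575 with limma on log2(FPKM + 1). YML039W went from 11.5 and 11.9 CPM to 6.54 and 4.80 CPM (edgeR adjusted p = 0.000381). YDR261C-D, an abundant row with 2872 and 2840 CPM in DMSO, had 2290 and 2385 CPM in IAA (log2 -0.29, edgeR adjusted p = 0.000544). YHR214C-B did not pass the test (2777 and 2794 CPM in DMSO, 2766 and 2752 CPM in IAA; edgeR adjusted p = 0.775). YML039W, YDR261C-D and YHR214C-B were named after their values were seen.

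**Figure D3:**
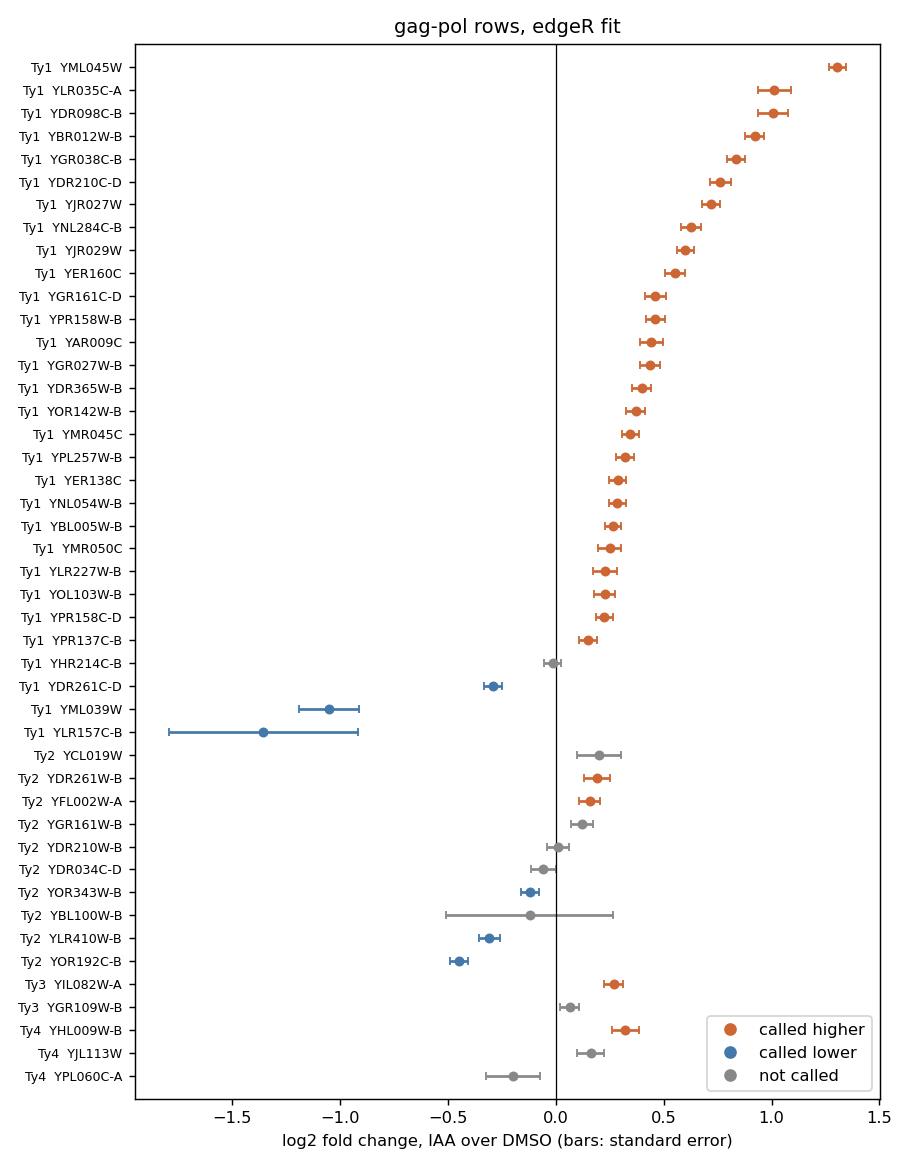
Log2 fold change of IAA over DMSO (horizontal axis) for each tested gag-pol row (vertical axis, grouped by family), with bars for the standard error of the edgeR fit and colour for the call at an adjusted p under 0.05. Of the 30 Ty1 rows 26 lie to the right and are called higher, while the 10 Ty2 rows lie on both sides of 0.

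The 5 Ty1 gag-pol rows with the most distinct sequence, those with at least 10% of their 100-base stretches found once in the genome, all rose. They were chosen by sequence alone. YNL284C-B (25.1% distinct) went from 854 and 903 CPM to 1324 and 1391 CPM (1.55-fold). YNL054W-B (22.5%) went from 757 and 775 CPM to 922 and 946 CPM (1.22-fold). YMR045C (16.8%) rose 1.27-fold, YBL005W-B (15.2%) 1.203-fold and YBR012W-B (11%) 1.89-fold, with edgeR adjusted p for the 5 rows between 6.64e-06 and 0.00063. Their median log2 fold change was 0.35, beside 0.40 for the 25 tested rows below 10%, of which 21 rose and 3 fell. In each of these 5 rows both IAA libraries lay above both DMSO libraries, as in 40.2% of all tested rows. Of all tested rows, 28.7% were called higher. The 5 rows still share reads with other copies.

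The window around the start of gag split Ty1 by the presence of CATTCC. Windows with and without it differ at many other bases as well, so the split is not by this motif alone. Of the 19 tested rows with it, 16 rose and 2 fell, with a median of 0.35. Of the 9 rows without it, 8 rose and 1 fell, with a median of 0.40. Among all tested rows, 28.7% were higher and 29.6% lower. Over all Ty1 gag-pol rows, the median share of 100-base stretches found once in the genome was 1.9%. How many reads the rows with and without CATTCC share was not measured, so these values are a description only.

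**Figure D4:**
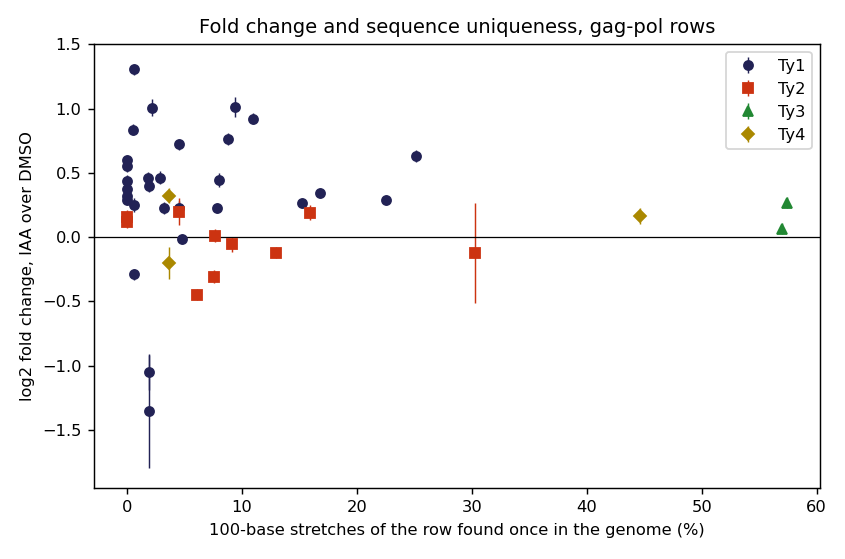
Share of the 100-base stretches of each tested gag-pol row that occur once in the R64 genome (horizontal axis, percent) against its log2 fold change of IAA over DMSO (vertical axis, bars for the standard error), by family. The extreme fold changes, from -1.36 to 1.305, belong to Ty1 rows with at most 1.9% distinct sequence, and the Ty3 rows at 57.0% and 57.4% lie near 0.07 and 0.27.

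Gag rows held few reads. All gag rows together held 0.584% and 0.597% of Ty reads in DMSO and 0.349% and 0.452% in IAA. Of 32 Ty1 gag rows, 27 were at 0 in every library. Of the 5 tested 1 rose and 4 fell, against 28.7% and 29.6% of all tested rows. YBL005W-A had 26.6 and 17.9 CPM in DMSO and was at 0 in both IAA libraries. YMR046C, named with it after its value was seen, had 14.9 and 20.6 CPM in DMSO and 0 in IAA. Each lies inside the gag-pol row of its element, so a 0 here can reflect how reads were divided, and no fold is given. Both passed the filter through DMSO alone. The gag-pol rows of the same elements rose, and the elements as a whole went from 2509 and 2547 CPM to 3030 and 2996 CPM for YBLWTy1-1 and from 2596 and 2629 CPM to 3311 and 3286 CPM for YMRCTy1-3.

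YBR012W-A had the highest mean CPM of the gag rows in DMSO, at 136 and 137 CPM in DMSO and 69.0 and 102 CPM in IAA (1.59-fold lower, edgeR adjusted p = 0.00431). It too lies inside a gag-pol row that rose. YLR256W-A, the only member in its element, went from 36.3 and 39.9 CPM to 32.1 and 31.7 CPM (edgeR adjusted p = 0.00991).

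YDR170W-A (chromosome IV, 803195 to 804517, plus strand) is the gag row least affected by these overlaps. It lies in no gag-pol row, and 70.8% of its 100-base stretches occur once in the genome. It had 70.8 and 70.9 CPM in DMSO and 91.6 and 107 CPM in IAA, so the groups did not overlap. It rose 1.40-fold (log2 0.49, SE 0.0720, edgeR adjusted p = 0.000648). YLR035C-A, the other remnant outside an annotated element, went from 149 and 156 CPM to 334 and 281 CPM (2.02-fold).

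Summing gag and gag-pol reads of each element before the fit, an alternative chosen after the data were seen, gave 25 Ty1 elements higher, 4 lower and 1 not called of 30 tested. The background in that fit was 28.9% of rows higher and 29.6% lower. For Ty2 it gave 2 higher, 3 lower and 5 not called of 10, for Ty3 1 higher of 2 and for Ty4 2 higher of 3, with none lower in Ty3 or Ty4.

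Ty2 gag-pol rows were mixed. Of 10 tested, 2 rose, 3 fell and 5 did not pass the test. This is near the share of all tested rows, 28.7% higher and 29.6% lower. The median log2 fold change was -0.02. YOR192C-B (chromosome XV, element YORCTy2-1), the most abundant, had 1841 and 1849 CPM in DMSO and 1385 and 1318 CPM in IAA. It fell 1.37-fold (log2 -0.45, SE 0.0420, edgeR adjusted p = 7.9e-05). YLR410W-B fell from 1537 and 1568 CPM to 1305 and 1205 CPM (1.24-fold, edgeR adjusted p = 0.000876), and YOR343W-B from 257 and 249.6 CPM to 232 and 234 CPM (1.09-fold, edgeR adjusted p = 0.0347). The last 2 were named after their values were seen.

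The rises in Ty2 were small. YDR261W-B went from 166 and 165 CPM to 200.1 and 178 CPM (1.14-fold, edgeR adjusted p = 0.0225). Its adjusted p was 0.228 with library size scaling, and it also missed the threshold without DMSO replicate 1 (0.0710), without DMSO replicate 2 (0.0746) or without IAA replicate 1 (0.0729). YFL002W-A and YGR161W-B are exact copies of each other in DNA sequence. The former went from 986 and 952 CPM to 1123 and 1039 CPM and passed the test (edgeR adjusted p = 0.0217). The latter went from 977 and 932 CPM to 1080 and 994 CPM and did not pass it (edgeR adjusted p = 0.0726). Their fold changes, 1.12 and 1.09, lie within their standard errors of each other.

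The Ty2 gag-pol row with the most distinct sequence carried almost no reads. This row, YBL100W-B, with 30.3% of its 100-base stretches found once, had 0.550, 0.976, 0.832 and 0.569 CPM in DMSO 1, DMSO 2, IAA 1 and IAA 2, and its groups overlapped (edgeR adjusted p = 0.806). The tested Ty2 gag rows were YLR410W-A, which rose from 32.7 and 44.1 CPM to 45.8 and 67.4 CPM (edgeR adjusted p = 0.0273), and YDR034C-C, which fell from 42.7 and 38.6 CPM to 25.4 and 29.1 CPM (edgeR adjusted p = 0.000544). The call of YLR410W-A was lost without IAA replicate 2 (adjusted p = 0.0947) and with DESeq2 (adjusted p = 0.167).

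Both Ty3 gag-pol rows had modest levels, between 19.5 and 29.1 FPKM as group means. They had the most distinct sequence of the gag-pol rows. YIL082W-A (chromosome IX, 205635 to 210132, element YILWTy3-1) had 105 and 109 CPM in DMSO and 129 and 128 CPM in IAA and rose 1.2045-fold (log2 0.27, SE 0.0448, edgeR adjusted p = 0.0012). YGR109W-B (chromosome VII, 707610 to 712254, element YGRWTy3-1) had 85.9 and 84.8 CPM in DMSO and 90.1 and 88.6 CPM in IAA and did not pass the test (log2 0.07, SE 0.0444, edgeR adjusted p = 0.235). Its sign turned with library size scaling (log2 -0.04). The Ty3 gag row YGR109W-A was at 0 in all libraries, although 69.9% of its stretches occur once in the genome, and any read of it also matches YGR109W-B, inside which it lies.

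Ty4 was the least abundant family, with gag-pol rows between 3.12 and 9.47 FPKM as group means. YHL009W-B (chromosome VIII, element YHLWTy4-1) went from 39.0 and 42.4 CPM to 50.2 and 51.5 CPM, a rise of 1.25-fold (log2 0.32, SE 0.0616, edgeR adjusted p = 0.00239). The call was lost with limma on log2(FPKM + 1), at an adjusted p of 0.0797. YJL113W, the Ty4 row with the most distinct sequence (44.6%), had 22.1 and 22.3 CPM in DMSO and 24.1 and 25.5 CPM in IAA (edgeR adjusted p = 0.0565). YPL060C-A had 20.0 and 18.5 CPM in DMSO and 19.2 and 14.3 CPM in IAA, and its groups overlapped (edgeR adjusted p = 0.201). Of the gag rows, YHL009W-A had 0.0333 and 0 CPM in DMSO and 2.44 and 2.43 CPM in IAA, but it lies inside YHL009W-B and shares its reads. It passed the filter through IAA alone, so no fold or p is given, although it counts among the members called at least 1.5-fold higher. YJL114W had 0.968 and 1.29 CPM in DMSO and 1.63 and 1.85 CPM in IAA (edgeR adjusted p = 0.0586; 0.0416 with the replicate number as a block).

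Lists of genes known to act on Ty elements were set beside all tested rows, of which 28.7% were higher and 29.6% lower with a median log2 fold change of -0.0036. Of 24 genes for activators of Ty transcription, 1 rose and 12 fell, with a median log2 fold change of -0.14. With library size scaling 19 fell. MCM1, a transcription factor of mating-type genes with sites in Ty1, fell 1.54-fold, from 132 and 148 CPM to 87.2 and 94.2 CPM (edgeR adjusted p = 0.000125). GCN4 was the gene that rose, 1.27-fold, from 641 and 655 CPM to 822 and 825 CPM. SNF2, the ATPase of the SWI/SNF remodeller, fell 1.22-fold and RAP1 1.24-fold. STE12 (128 and 129 CPM in DMSO, 126 and 133 CPM in IAA) and TEC1 (72.0 and 75.9 CPM, then 76.5 and 69.8 CPM), named for the letters searched in the promoters, overlapped between groups. Their edgeR adjusted p were 0.855 and 0.831.

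Of 16 genes for repressors of Ty transcription and chromatin factors, 2 rose and 12 fell (median -0.24), against 28.7% and 29.6% of all tested rows. With library size scaling 1 rose. HTA1, a histone H2A gene, rose 1.81-fold, from 83.9 and 95.9 CPM to 162 and 164 CPM (edgeR adjusted p = 3.41e-05). The repressor gene MOT3 fell 1.44-fold, SPT2 1.34-fold and HPC2, of the HIR histone chaperone, 1.31-fold.

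Of 22 genes for factors that restrict Ty movement, 3 rose and 9 fell (median -0.09), against the same 28.7% and 29.6%. With the replicate number as a block 6 rose. RTT107, a scaffold of the replication stress response, fell 1.29-fold and the histone chaperone gene RTT106 1.27-fold, while the TFIIH helicase gene SSL2 rose 1.26-fold. Of 18 genes for RNA cofactors of Ty elements, 2 rose and 10 fell (median -0.13), again beside 28.7% and 29.6%. With library size scaling 0 rose. Without DMSO replicate 1, 0 rose, and without DMSO replicate 2, 1 rose, while 5 fell without DMSO replicate 1 and 6 without DMSO replicate 2. SRP21 fell 1.49-fold, SRP14 1.45-fold and SRP72 1.25-fold, all encoding proteins of the signal recognition particle, and NMD2, of nonsense-mediated decay, 1.35-fold.

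Of 16 genes for integration targets and nuclear import, 1 rose and 9 fell (median -0.17), beside 28.7% and 29.6% of all tested rows. The RNA polymerase III subunit genes RPC53 and RPC34 fell 1.40-fold and 1.48-fold and TFC3, a TFIIIC subunit, 1.26-fold, while the importin gene KAP95 rose 1.24-fold. Over these 4 lists of named genes after the activators, adjusted p for the named members lay between 3.41e-05 and 0.000788 in the edgeR fit. In each of them both IAA libraries lay on the same side of both DMSO libraries. They were named for a low adjusted p, so this separation comes with the choice. Among all tested rows, 40.2% lay above and 41.3% below in the same way.

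Genes beside Ty elements of any family were counted in the same fit. The nearest other genes within 1000 bp of either end of a gag-pol row numbered 40, of which 36 were tested, 9 rose and 15 fell, with a median log2 fold change of -0.15, beside 28.7% and 29.6% of all tested rows. With library size scaling 5 rose. NDJ1, a meiotic telomere protein gene 546 bp from YOL103W-B, rose from 17.5 and 18.0 CPM to 32.3 and 31.6 CPM (1.80-fold, edgeR adjusted p = 3.38e-05). RRP9, a component of the U3 particle beside YPR137C-B, fell 1.46-fold from 142 and 139 CPM to 96.9 and 94.6 CPM (edgeR adjusted p = 4.35e-05). YAP3, beside the Ty4 row YHL009W-B, fell 1.55-fold and BUR6, beside YER160C, 1.301-fold. YER160C itself went from 1857 and 1982 CPM to 2804 and 2828 CPM.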

How the data were processed

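RNA-seq libraries were made from total RNA with a directional kit, per the labels' protocols. The authors deposited RSEM-type expected counts per gene, with decimals where reads are divided among loci, and FPKM values in a second table, of which 3 lines were empty here. Tools listed, without roles, in the submitters' processing notes are RSEM 1.3.3, STAR 2.7.10a, DESeq2, Trimmomatic, FastQC 0.11.9 and SAMtools 1.10, with build R64. The sources used here do not say if counting used strand, and without it reads of a gene and its antisense partner cannot be told apart. The count columns are labelled by treatment and replicate.

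Positions, products and sequences came from RefSeq R64, and members were matched on row names. Expected counts were rounded to whole numbers and tested in R 4.3.3 with edgeR 4.0.16 (filterByExpr, TMM, glmQLFit, glmQLFTest; IAA against DMSO, no covariates, Benjamini-Hochberg, threshold 0.05). The standard error is the log2 fold change divided by the root of F. Counts were called whole with no tolerance for decimals. Alternatives included limma 3.58.1 on log2(FPKM + 1), limma-voom and DESeq2 1.42.0. On counts simulated for IAA against DMSO over 5793 tested genes, 68.7% of genes changed 1.2-fold and 98.5% of those changed 1.5-fold were recovered, with 9 false calls among 186. The simulation drew whole counts independently for each gene, with a single dispersion of 0.0018. It did not model reads divided among copies, so these figures may not hold for the Ty rows.

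The members and gene lists were chosen with earlier results of these data known. Rows named were, per family and class, the most abundant, the largest called rise and the largest called fall, all rows of Ty3, and, in each list and beside the elements, up to 4 called genes with the lowest adjusted p; others are said to be named after their values were seen or were chosen by sequence, position or overlap. No row with reads was whole in all 4 libraries, so the rule's part on whole counts named none. A gene that the rule names is not reported here. SDs describe the spread between the libraries of a group, and standard errors come from the edgeR fit, which includes such spread.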

Additional observations from a re-analysis of the deposited data

How the results depend on the processing

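Between 25 and 37 Ty rows were higher and between 7 and 13 lower under the other scalings, filters and tests, of which a mean of at least 10 CPM left 7 lower. Requiring 1.5-fold left 10 higher and 5 lower, and element sums, chosen after the data were seen, gave 32 higher and 7 lower, with the 2 rows outside annotated elements counted among them. Leaving out each library gave 28 to 34 higher and 9 to 13 lower.

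Library size scaling moved the log2 ratio of summed counts to 0.24 for all Ty1 and for Ty1 gag-pol, -0.24 for all Ty2 and for Ty2 gag-pol, 0.0773 for Ty3, 0.0673 for Ty4 gag-pol, 0.111 for all Ty4 and 0.195 for all Ty rows. Deposited FPKM gave 0.231 and 0.244, -0.224 and -0.238, 0.0823, 0.0702, 0.287 and 0.189, and 1.25 for Ty4 gag. The Ty2 gag ratio of 0.0852 turned to -0.0182 with library size and -0.0042 with FPKM. Leaving out each library gave -0.15 to 0.287 for Ty2 gag, -0.567 to -0.242 for Ty1 gag, 1.7 to 2.06 for Ty4 gag and 0.289 to 0.31 for all Ty rows. YGR109W-B turned to -0.0393 with library size and -0.0344 on log2(FPKM + 1). With library size scaling, 31.1% of all calls were higher, against 49.3% with TMM, and 34.1% on FPKM. The cause of these moves was not tested.

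Library size scaling gave 19 activators lower, 1 repressor and 0 cofactors higher, and 5 neighbours higher. Leaving out each library gave 0 to 3 cofactors higher and 5 to 10 lower.

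The replicate numbers name no shared batch, and same-numbered deviations correlated at r = 0.239, a single value since with 2 libraries a group both pairs must give the same r. With the number as a replicate block, 37 Ty rows were higher and 12 lower, and 6 restriction factors were higher. Of 150 checks on 15 named rows, 135 kept direction and call, 12 lost the call, 1 gained it and 2 turned sign. The alternative of whole-count rows gave no value. With 2 libraries a group, the precision of each spread is low, and depth limits the rows near 0.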
